A study of Mus musculus with 2 samples.

Results

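Differentiating myocytes of injured mouse muscle, the barcodes that carried RNA of Myog, Mymk and Mymx, numbered 121 in a Setdb1 conditional knockout (KO) library and 73 in a wild-type (WT) library. They are 194 of the 13508 barcodes that passed the quality limits, 6786 KO and 6722 WT. They were chosen by their UMI counts (unique molecular identifiers, each counting 1 captured RNA molecule). A barcode needed at least 5000 UMIs, at most 10% mitochondrial UMIs, at least 5 UMIs of Myog, Mymk and Mymx together, and at most 1 UMI of Csf1r, Pdgfra and Cdh5 together, genes of phagocytes, fibro-adipogenic cells and endothelium. Levels of Myog, Mymk and Mymx are therefore a description of the choice and support nothing. A member of this population is 1 such barcode.

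Both libraries hold cells of injured tibialis anterior (TA) muscle from mice of 8 to 12 weeks. The KO library came from the conditional model Setdb1-cKO, and the other library is labelled WT with no further genotype. The muscle was taken apart with collagenase II and then dispase, and the cells were sorted by Hoechst and propidium iodide staining before 10x Genomics capture. The sources used here name no Cre driver, deleted exons, kind of injury, time after injury or number of animals. With 1 library per genotype no difference below has a replicate check, and no p-value was computed. All intervals are 95% intervals for counting error only: exact Poisson for levels, exact Clopper-Pearson for shares and conditional binomial for ratios. They take the UMIs of a cell as independent, so they are too narrow for genes held by few cells.

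Muscle stem cells that leave the cell cycle after injury switch on Myog, a basic helix-loop-helix transcription factor that binds E-box sequences in muscle genes. The cells then make the membrane proteins myomaker (Mymk) and myomixer (Mymx), which act together in the fusion of myocytes into fibres. Sarcomere proteins follow, at first in developmental isoforms such as the cardiac actin Actc1, which the skeletal actin Acta1 later replaces. Setdb1 is a histone methyltransferase that places the repressive mark H3K9me3.

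The promoters of 3 genes on which the results turn are shown: Myog, which chose the members, Actc1, the developmental actin that marks them, and Cck, the gene that differed most between KO and WT members. Each is 250 bases before to 50 after the start of transcription in RefSeq (GRCm38.p6), 5′ to 3′ on the gene's strand, with E-box letters (CANNTG, the same on both strands) in capitals. Myog lies on the plus strand (chr1:134289754-134290053), and Actc1 (chr2:114052826-114053125) and Cck (chr9:121495645-121495944) on the minus strand.
Myog: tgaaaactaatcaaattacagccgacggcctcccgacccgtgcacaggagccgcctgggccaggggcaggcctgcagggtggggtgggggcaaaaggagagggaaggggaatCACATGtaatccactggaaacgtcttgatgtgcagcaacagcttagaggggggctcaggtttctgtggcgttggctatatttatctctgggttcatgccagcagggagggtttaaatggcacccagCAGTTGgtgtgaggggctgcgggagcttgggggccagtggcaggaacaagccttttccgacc
Actc1: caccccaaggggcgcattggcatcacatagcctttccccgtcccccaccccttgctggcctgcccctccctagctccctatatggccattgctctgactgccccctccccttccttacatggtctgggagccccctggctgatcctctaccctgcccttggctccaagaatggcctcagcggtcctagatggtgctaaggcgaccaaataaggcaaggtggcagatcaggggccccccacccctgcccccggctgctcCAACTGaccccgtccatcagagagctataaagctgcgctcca
Cck: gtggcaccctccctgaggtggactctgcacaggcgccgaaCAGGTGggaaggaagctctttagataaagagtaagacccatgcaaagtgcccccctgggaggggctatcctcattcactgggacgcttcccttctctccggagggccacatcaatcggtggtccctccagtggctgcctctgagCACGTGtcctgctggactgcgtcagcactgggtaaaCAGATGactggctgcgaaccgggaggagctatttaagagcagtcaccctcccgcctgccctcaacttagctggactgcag
The windows of Myog, Actc1 and Cck hold 2, 1 and 3 matches to CANNTG. Of all 32851 promoter windows of this length in the table, 72.3% hold at least 1 match and 17.6% hold at least 3. The E-box CAGCTG, on either strand, has no match in these 3 windows and is in 16.3% of all windows. A match is a description of letters and not a binding site.

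Outside the genes of the rule, the members carried the RNA of differentiating muscle and little of other cell types. Des, the muscle intermediate filament, was present in 98.3% of KO and 100% of WT members, and Actc1 in 52.9% and 54.8%. Myog, which the rule used, was present in 96.7% and 98.6%. Marker lists of 9 other cell classes took a median of 0.161% of UMIs per KO member and 0.112% per WT member, against 3.61% of KO and 3.30% of WT quality barcodes at large. These lists include Csf1r, Pdgfra and Cdh5, which the rule limits. The low share of the members is therefore a description of the choice and supports nothing. All 9 phagocyte markers were detected in both libraries, with summed levels of 1010 CPM in KO and 882 CPM in WT members (CPM, a gene's UMIs scaled to 1e6 UMIs of the summed members). Of 8 fibro-adipogenic markers, which summed to 889 and 511 CPM in KO and WT members, Pi16 and Dpt were at 0 in WT members, and so was Pdgfra, which the rule limits. The summed phagocyte level per member ran from 224 to 23011 CPM in KO and from 113 to 19700 CPM in WT, and the fibro-adipogenic level from 0 to 19527 CPM in KO and from 0 to 1880 CPM in WT. More than 1% of UMIs fell in markers of other classes in 13 KO members and 1 WT member. Fewer than 0.1% of UMIs were Malat1, a nuclear RNA, in 19 KO members and 2 WT members.

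The members summed to 2875216 KO and 1966217 WT UMIs, with medians of 21124 UMIs and 4161 genes per KO member and 24636 UMIs and 4518 genes per WT member. Depth ran from 5336 to 69079 UMIs in KO and from 7195 to 81040 UMIs in WT members. Free RNA of the suspension was estimated at 5.42% of member UMIs in KO and 3.59% in WT. Of the quality barcodes, 8 sequences occurred in both libraries, and 0 of these were members.

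The UMIs of Myog, Mymk and Mymx together had a median of 24 per KO member and 45 per WT member, with highest values of 503 and 775. At the threshold, 10 KO and 2 WT members had exactly 5 such UMIs, and 16 KO and 5 WT barcodes with exactly 4 stayed outside. A further 23 KO and 13 WT barcodes met the marker sum and failed the limit on Csf1r, Pdgfra and Cdh5. The members held 82.8% of the Myog UMIs of all quality barcodes in the KO library and 89.0% in the WT library.

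Setdb1 (chr3:95323525-95357202, GRCm38) checks the genotype label. It had 15 UMIs in KO members and 43 in WT members, which is 5.22 CPM (2.92 to 8.60) and 21.9 CPM (15.8 to 29.5), a KO over WT ratio of 0.239 (0.123 to 0.438). At least 1 UMI was seen in 14 of 121 KO members and 29 of 73 WT members. Thinned to 5000 UMIs per barcode, the shares were 0.826% in KO and 8.22% in WT members. In phagocyte barcodes (3 or more Csf1r UMIs, median depths 12470 and 12281 UMIs) the thinned shares were 9.24% in KO and 7.73% in WT, and in all barcodes outside the myogenic ones the levels were 17.7 and 15.1 CPM. The non-cycling other myogenic barcodes had 8.45 CPM in KO and 16.1 CPM in WT. A 3′ tag need not lie in the deleted part, so these values check the label and not the loss of the protein.

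Differentiating myocytes made up a larger share of the KO library. They were 1.78% (1.48 to 2.13) of KO quality barcodes and 1.09% (0.852 to 1.36) of WT quality barcodes, a ratio of 1.64 (1.22 to 2.23). Against the myogenic barcodes alone, which add those with at least 5 UMIs of Pax7, Myf5 and Cdh15, they were 36.7% in KO (121 of 330; 31.5 to 42.1) and 11.8% in WT (73 of 621; 9.33 to 14.6), a ratio of 3.12 (2.31 to 4.23). The larger ratio goes with fewer other myogenic barcodes in KO. Non-cycling ones numbered 119 in KO and 449 in WT, and cycling ones, with 3 or more UMIs of Mki67 and Top2a, numbered 90 and 99. Without the members of over 1% other-class markers the log2 ratio of the shares was 0.57, and without those of under 0.1% Malat1 it was 0.51, against 0.72 with all.

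The excess of KO members was not the same at every depth. From 5000 to under 10000 UMIs, 24 KO and 5 WT barcodes met the rule, 0.963% of KO and 0.219% of WT quality barcodes of that depth. From 10000 to under 20000 UMIs there were 30 and 26, or 1.02% and 0.824%. From 20000 to under 40000 UMIs there were 52 and 28, or 4.92% and 2.45%. At 40000 UMIs and above the order turned, with 15 KO and 14 WT members, 5.12% and 9.93%. No interval was computed for the shares by depth, and the numbers of members are small, so whether counting error covers the turn was not tested.

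**Figure D1:**
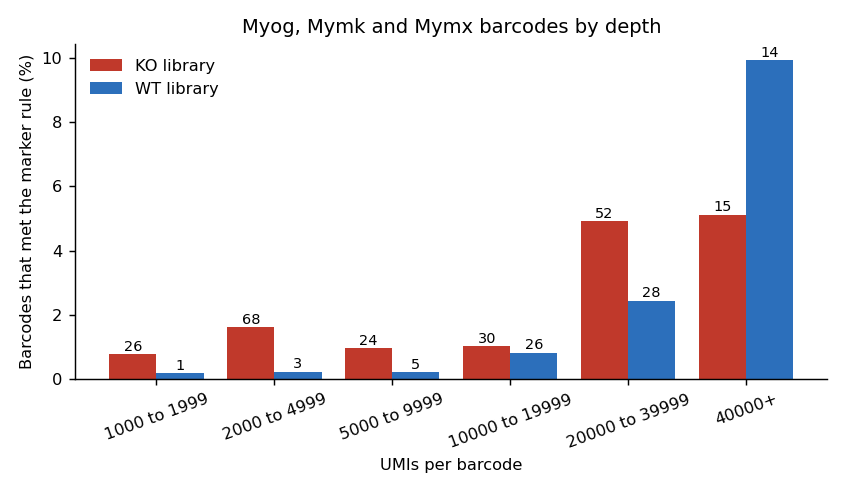
Share of barcodes that met the marker rule (percent of barcodes with at most 10% mitochondrial UMIs), by UMIs per barcode, in the KO library (red, left) and the WT library (blue, right), with the number of barcodes over each bar. The KO share was higher in every range but the deepest, where it was 5.12% in KO and 9.93% in WT.

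The members covered a wide range of marker level. To describe it, members were split by their summed level of Myog, Mymk and Mymx at 1000 and 5000 CPM. The limits were chosen after the values were seen, and the level is that of the genes that chose the members, so all values by range are descriptions that support no difference between KO and WT. The low, middle and high ranges held 43, 56 and 22 KO members and 22, 24 and 27 WT members. Within 20% of the limit of 1000 CPM lay 10 KO and 3 WT members, and within 20% of 5000 CPM lay 9 and 9. The high range was 18.2% of KO members and 37.0% of WT members. Of all quality barcodes, the low range was 0.634% in KO and 0.327% in WT, the middle range 0.825% and 0.357%, and the high range 0.324% and 0.402%. Median depths were 21859, 18298 and 23153 UMIs in the KO ranges and 26192, 16639.5 and 26146 UMIs in the WT ranges.

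Members with 3 or more UMIs of Mki67 and Top2a, genes of dividing cells, were 18.2% of KO (11.8 to 26.2) and 19.2% of WT members (10.9 to 30.1), and 9.09% and 10.96% after thinning. The ratio of the first pair was 0.948, with an interval of 0.464 to 2.004 that holds 1. None of the high-range members was cycling, against 14 KO and 9 WT members in the low range and 8 and 5 in the middle range. Members with 3 or more UMIs of Mymk and Mymx were 69.4% of KO and 74.0% of WT members, and 43.8% and 52.1% after thinning. Members with 5 or more Myog UMIs and at most 1 UMI of the fusion genes were 23.1% of KO and 23.3% of WT members. After thinning these shares were 19.8% and 15.1%.

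Sarcomere genes were prominent among those that set differentiating myocytes apart from the non-cycling other myogenic barcodes, in both libraries. Of 9985 genes with enough UMIs, 326 (3.26%) were at least 2-fold higher in members than in non-cycling other myogenic barcodes in both libraries, and 241 (2.41%) were at least 2-fold lower. These ratios are of CPM + 5, and since the members were chosen on muscle genes they are a description. The members include cycling cells, which the barcodes compared leave out. Genes of G2 and M phase were higher in 18 of 18 tested in each library, with median log2 ratios of 1.69 in KO and 2.26 in WT. Without the cycling members, 269 genes were at least 2-fold higher in both libraries. The 12 highest were Actc1, Myh3, Mybph, Lmod2, Acta1, Lmod3, Klhl41, Ckm, Myl4, Fndc5, Mylpf and Tnnc2. Actc1 had 1207 CPM in KO members against 6.57 CPM in KO non-cycling barcodes, and 2172 against 12.7 CPM in WT. Myh3, the embryonic myosin heavy chain, had 241 against 1.41 CPM in KO and 263 against 1.53 CPM in WT. Lmod2 and Lmod3, which nucleate actin filaments, and Klhl41, a sarcomere assembly factor, were between 4.14 and 4.53 higher on the log2 scale in both libraries. Ckm, the muscle creatine kinase, had 149 CPM in KO members and 132 CPM in WT members, an order that turned to a log2 ratio of -0.52 without the members of under 0.1% Malat1.

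Among the 12 lowest genes in members against non-cycling myogenic barcodes were Chodl, Itih5, Meg3, Msc, Ccn5, Islr, Ccl2, Ndrg1, Gpx3, Plagl1 and Timp3. Msc, a repressor of myogenic differentiation, had 27.8 CPM in KO members against 185 CPM in KO non-cycling barcodes, and 30.5 against 253 CPM in WT. Pax7, the stem cell transcription factor, which the choice of the other barcodes used, had 24.7 against 176 CPM in KO and 25.9 against 203 CPM in WT. Myod1, the myoblast determination factor, was higher in members, at 292 against 100.4 CPM in KO and 375 against 21.4 CPM in WT. Calcr, a quiescence marker, was at 0 in members of both libraries.

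The list of developmental sarcomere isoforms had a median log2 ratio, members over non-cycling barcodes, of 3.73 in KO and 4.98 in WT. Adult isoforms had 2.77 and 3.23, sarcomere scaffold genes 1.85 and 2.10, and endplate genes, which build the acetylcholine receptor cluster, 1.21 and 1.21. Stem and quiescence genes had medians of -1.06 in KO and -0.94 in WT. The medians over all genes tested were -0.09 in KO and -0.02 in WT. Immediate early and heat shock genes had -1.22 and -1.15, and basement membrane and matrix genes -0.95 and -1.27.

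Few genes differed by 2-fold or more between KO and WT members. Of 9800 genes with at least 20 UMIs, 134 (1.37%) were at least 2-fold higher in KO members and 63 (0.643%) were at least 2-fold lower, on the scale of CPM + 5. The median log2 ratio over all of them was -0.02, and 4584 (46.8%) were higher and 5216 (53.2%) lower in KO members, the background for the list counts below. The named genes are the 12 highest and 12 lowest by the interval bound of the ratio nearest to 1, among those with at least 50 CPM in 1 library.

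**Figure D2:**
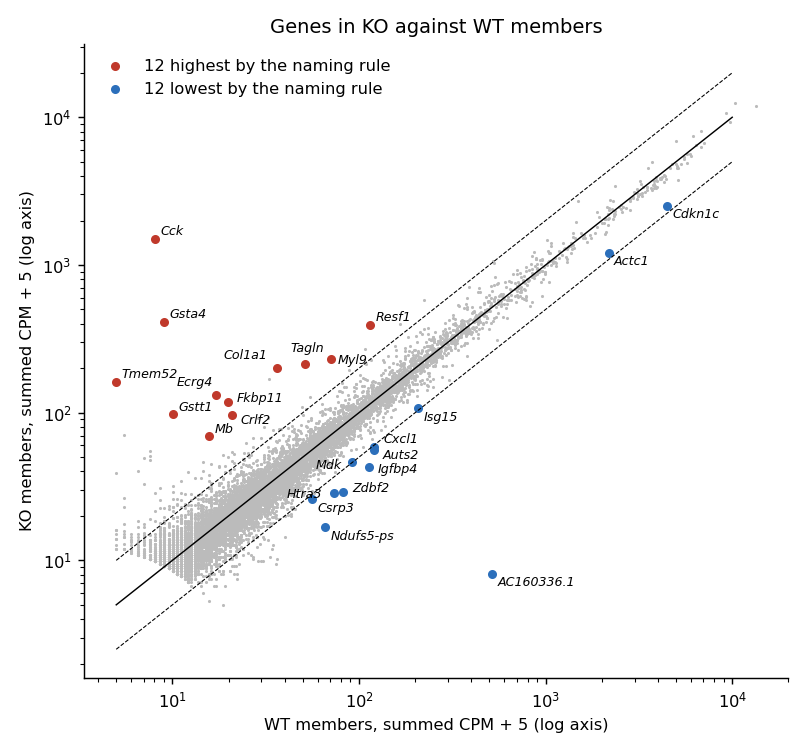
Summed CPM + 5 of each of the 9800 genes in KO members (y, log axis) and WT members (x, log axis), with the line of equal levels and dashed lines at 2-fold; red and blue mark the 12 highest and 12 lowest genes by the naming rule. Cck, Gsta4 and Tmem52 lie far above the line and AC160336.1 far below it.

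Cck, the gene of the gut and brain peptide cholecystokinin (chr9:121489824-121495694), was the gene with the largest difference. It had 4292 UMIs in KO members and 6 in WT members, which is 1493 CPM (1448 to 1538) and 3.05 CPM (1.12 to 6.64), a ratio of 489 (225 to 1334). It was present in 57 of 121 KO members and 3 of 73 WT members, and after thinning in 38.8% and 1.37%. In phagocyte barcodes, which should lack it, the thinned shares were 1.06% in KO and 0.0750% in WT. Of the Cck UMIs in all KO quality barcodes, 79.1% lay in members. KO non-cycling myogenic barcodes had 15.0 CPM, and WT ones 3.84 CPM.

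Within the KO library, the members with most Cck also held more RNA of the developmental actin. The 35 KO members with 10 or more Cck UMIs, a set picked by its Cck, had 3174 CPM of Actc1, and the other 86 had 306 CPM. By marker range Cck had 67.6, 1229 and 4270 CPM in low, middle and high KO members, against 5.66, 0 and 2.57 CPM in WT ones. Single cells weighed on these values: without the member with the most Cck UMIs, which was left out after the data were seen, the KO levels were 29.1, 776 and 3968 CPM. Of the 6 Cck UMIs of WT members, 4 lay in 1 cell. Median depths of the first and the second set were 21086 and 21313.5 UMIs. Top2a, a gene of dividing cells, had 7.75 CPM in the 35 members and 234 CPM in the other 86. The highest cell held 14.6% and the 10 highest cells 69.4% of the Cck UMIs of KO members.

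Tmem52 and Gsta4 were also near absent in WT members. By range Tmem52 had 72.7, 208 and 183 CPM in KO members and no UMI in WT members. Tmem52, a membrane protein gene (chr4:155469114-155470858), had 450 UMIs in 56 KO members (157 CPM) and none in WT members. Against a floor of 3 UMIs over the WT members (1.53 CPM) it was at least 103-fold higher. Gsta4, a glutathione transferase that detoxifies products of lipid peroxidation (chr9:78182774-78209349), had 409 CPM in KO and 4.07 CPM in WT members, a ratio of 100.4 (50.8 to 233). Gsta4 was nearly as high in KO non-cycling myogenic barcodes, at 389 CPM, against 5.63 CPM in WT ones. By range it had 602, 349 and 227 CPM in KO members and 2.83, 6.26 and 3.85 CPM in WT members. Of the KO members, 6 had 10 or more UMIs of both Cck and Gsta4, 29 of Cck alone, 22 of Gsta4 alone, and 64 of neither. Gstt1, another glutathione transferase, had 92.5 CPM in KO and 5.09 CPM in WT members.

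Of the other genes among the 12 highest, Resf1, which encodes a factor that acts with SETDB1 in silencing retroelements, had 387 CPM in KO and 109 CPM in WT members, a ratio of 3.54 (3.05 to 4.11). In non-cycling myogenic barcodes Resf1 reached 1058 CPM in KO against 107 CPM in WT. Atf7ip, the partner that stabilises SETDB1, had 87.3 CPM in KO and 27.5 CPM in WT members. Resf1 and Atf7ip were the 2 genes of 21 tested on the list of H3K9 methylation and silencing that were at least 2-fold higher in KO members. Over all genes tested, 1.37% were. The list as a whole went both ways, with 10 genes higher and 11 lower, 1 of these at least 2-fold lower, and a median log2 ratio of -0.003. Trim28, the corepressor that recruits SETDB1, had 56.3 and 56.5 CPM. Outside the myogenic barcodes Resf1 had 110 CPM in KO and 85.9 CPM in WT, and Atf7ip 43.5 and 39.5 CPM. Ecrg4 had 127 CPM in KO and 12.2 CPM in WT members, Fkbp11 113 and 14.8 CPM, and Crlf2, a cytokine receptor subunit, 91.1 and 15.8 CPM.

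The remaining 4 of the 12 highest genes were Col1a1, Mb, Tagln and Myl9. Col1a1, the collagen of fibroblasts, had 197 CPM in KO and 31.5 CPM in WT members, and the 10 highest KO members held 64.0% of its UMIs. Its expected level from free RNA was 142 CPM in KO and 47.2 CPM in WT members, and its log2 ratio of 2.47 became 1.12 without the members of over 1% other-class markers; the part of free RNA and mixed cells in the difference was not tested. Mb had 64.3 CPM in KO and 10.7 CPM in WT members, and 1 KO member held 76.8% of its UMIs. Tagln and Myl9, genes of the smooth muscle contractile apparatus, had 207 and 226 CPM in KO against 46.3 and 65.6 CPM in WT members. Outside the myogenic barcodes Tagln had 295 CPM in KO and 179 CPM in WT, and Myl9 111 and 79.8 CPM. The expected levels of Tagln and Myl9 from free RNA were 12.5 and 5.33 CPM in KO members. In WT members they were 4.42 and 2.16 CPM. Tagln was present in 51 and Myl9 in 74 of 121 KO members, and the 10 highest held 78.2% and 64.1% of their UMIs.

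**Figure D3:**
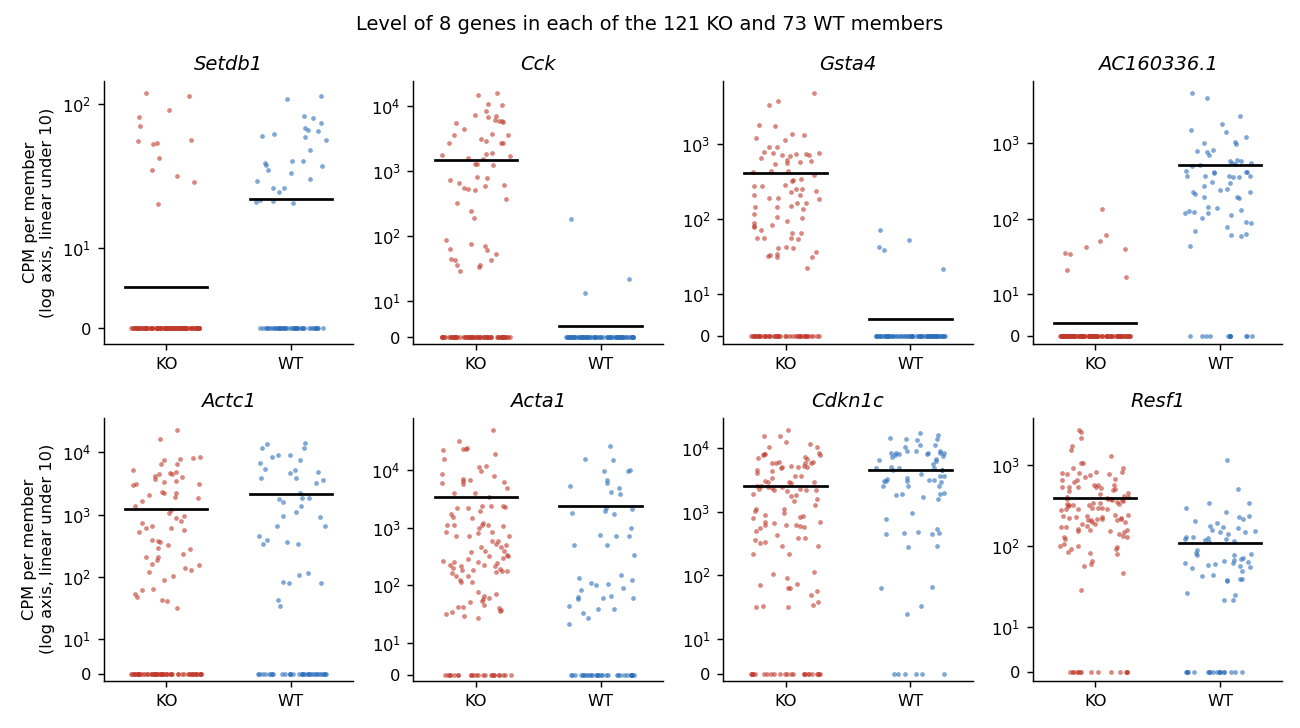
CPM of 8 genes in each of the 121 KO members (left, red) and 73 WT members (right, blue) on a log axis that is linear under 10 CPM, with the level of the summed members as a black line. Most WT members are at 0 for Cck and Gsta4, with highest cells of 186 and 70.9 CPM. Most KO members are at 0 for AC160336.1, with a highest cell of 134 CPM. The cells of the 2 libraries overlap for Actc1, Acta1, Cdkn1c and Resf1. They also overlap at 0 for Cck and Gsta4, which were present in 57 and 75 of the 121 KO members.

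Among the 12 lowest genes in KO members, AC160336.1, a lincRNA with no function given here (chr14:44544055-44637201), had by far the largest difference. It had 9 UMIs in KO and 1005 in WT members, or 3.13 and 511 CPM, and was present in 9 of 121 KO and 61 of 73 WT members. The difference was not limited to muscle cells. Outside the myogenic barcodes it had 3.62 CPM in KO and 362 CPM in WT, and thinned phagocyte barcodes had it in 2.64% of KO and 55.9% of WT. Ndufs5-ps, listed as a pseudogene by its name and open to shared reads with its parent gene, likewise had 11.8 CPM in KO and 60.5 CPM in WT members, and 6.79 and 25.5 CPM outside the myogenic barcodes.

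Cdkn1c, the cell cycle inhibitor p57 and an imprinted gene (chr7:143458339-143461050), was lower in KO members at 2508 CPM against 4470 CPM in WT, a ratio of 0.561 (0.544 to 0.579). In the non-cycling other myogenic barcodes it had 251 CPM in KO and 1699 CPM in WT. The low, middle and high marker ranges had 411, 2213 and 6407 CPM in KO and 1027, 4167 and 7778 CPM in WT members. Its UMIs were in 97 of 121 KO and 67 of 73 WT members, and the cells of the libraries overlapped. Cdkn1a, the p21 inhibitor that myocytes use on leaving the cycle, had 670 CPM in KO and 737 CPM in WT members.

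Zdbf2, an imprinted gene, had 24.0 CPM in KO and 77.3 CPM in WT members, and Mest, another, had 519 and 820 CPM. Of the 16 imprinted genes tested, 12 were lower and 4 higher in KO members, with a median log2 ratio of -0.21, against 53.2% lower over all genes tested. H19, an imprinted RNA abundant in fetal muscle, was among those higher, at 313 CPM in KO and 247 CPM in WT members. Igfbp4, which binds insulin-like growth factors, had 37.6 CPM in KO and 108 CPM in WT members. Htra3, a secreted protease, had 23.7 and 68.2 CPM, Auts2 51.1 and 115 CPM, and Mdk, the growth factor midkine, 41.4 and 87.0 CPM. Csrp3, a muscle LIM protein of the Z-disc, had 20.9 CPM in KO and 50.9 CPM in WT members. Cxcl1, a chemokine, had 53.9 and 116 CPM. Few cells held both genes: the 10 highest members had 88.3% of the Csrp3 UMIs in KO and 95% in WT. For Cxcl1 these shares were 72.3% and 84.2%. Outside the myogenic barcodes both genes were higher in KO, Csrp3 at 1.08 against 0.383 CPM and Cxcl1 at 542 against 398 CPM.

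The actins differed in opposite directions between KO and WT members. Actc1 had 1207 CPM in KO and 2172 CPM in WT members, a ratio of 0.556 (0.531 to 0.581), and Acta1 (chr8:123891769-123894751) had 3415 and 2359 CPM, a ratio of 1.45 (1.40 to 1.4997). Without the members of under 0.1% Malat1 the log2 ratio of Acta1 was 0.25, against 0.53 with all. In the low marker range Acta1 had 430 CPM in KO against 35.3 CPM in WT members, in the middle range 4021 against 1194 CPM, and in the high range 6857 against 5183 CPM. In the low range 1 KO member held 225 of the 420 Acta1 UMIs and 1 WT member 12 of 25, and without the highest member of each library the levels were 201 and 19.02 CPM. Actc1 had 48.1 CPM in KO against 26.9 CPM in WT in the low range, 829 against 545 CPM in the middle range, and 3799 against 5117 CPM in the high range. In the low range 1 WT member held 17 of the 19 Actc1 UMIs, and without the highest member of each library the levels were 32.8 CPM in KO and 3.03 CPM in WT; in the middle range they were 667 and 323 CPM. Per cell, Actc1 ran from 0 to 22710 CPM in KO, with a median of 48.2 CPM, and from 0 to 14045 CPM in WT, with a median of 80.6 CPM. Acta1 ran from 0 to 50132 CPM in KO, with a median of 261 CPM, and from 0 to 26553 CPM in WT, with a median of 56.2 CPM.

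After thinning to 5000 UMIs, Acta1 was present in 63.6% of KO members (54.4 to 72.2) and 41.1% of WT members (29.7 to 53.2), and in 7.15% of KO and 5.40% of WT phagocyte barcodes. Actc1 was present in 47.1% of KO and 50.7% of WT members, and in 2.13% of KO and 2.48% of WT phagocyte barcodes. Both actins were seen in 46 KO and 22 WT members, Acta1 alone in 31 and 8, Actc1 alone in 11 and 15, and neither in 33 and 28. Acta1 outside the myogenic barcodes was also higher in KO, at 64.1 CPM against 32.7 CPM in WT. With the expected free RNA subtracted, the log2 ratio of Acta1 in members was 0.56, against 0.53 before.

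**Figure D4:**
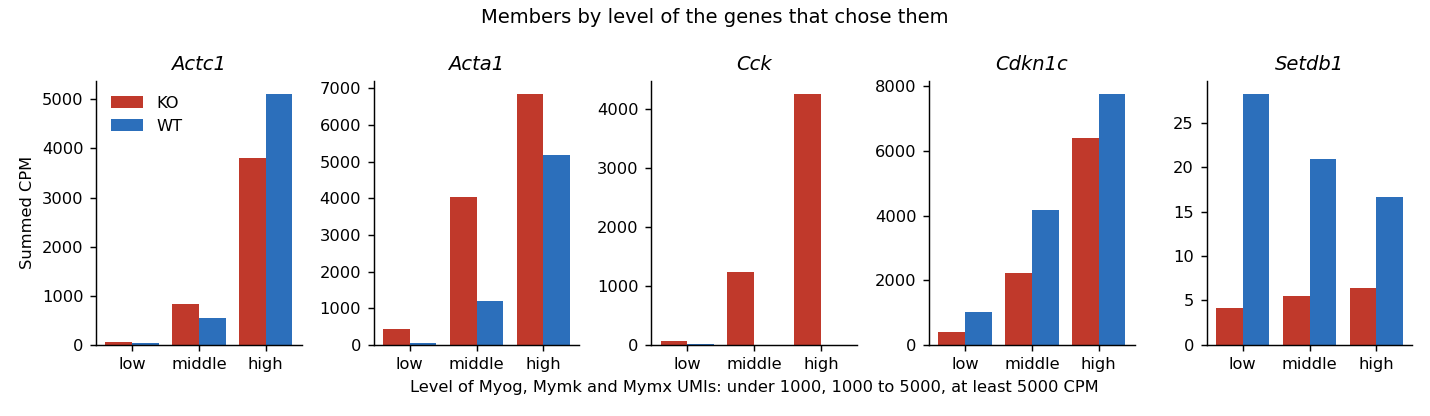
Summed CPM of 5 genes in KO (red, left) and WT (blue, right) members in the low, middle and high ranges of Myog, Mymk and Mymx level, each panel with its own axis from 0. The ranges are of the genes that chose the members, so the panels are a description. Actc1, Acta1 and Cdkn1c climb with the marker level in both libraries. Cck climbs in KO members and is at most 5.66 CPM in WT members. Setdb1 is lower in KO members in every range, on 4, 7 and 4 UMIs against 20, 10 and 13 in WT members. The interval of its ratio in the high range, 0.092 to 1.25, holds 1.

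Other sarcomere genes went both ways. Of the 10 developmental isoforms tested over all members, 3 were higher and 7 lower in KO, with a median log2 ratio of -0.31, or -0.44 without the members of under 0.1% Malat1. Among them Myl4, the embryonic light chain, had 612 CPM in KO and 950 CPM in WT members, Tnni1, the slow troponin I, 435 and 616 CPM, and Tnnt2, the cardiac troponin T, 1408 and 1068 CPM. Of the 10 adult isoforms tested, 6 were higher and 4 lower, with a median of 0.005 that was -0.25 without the members of under 0.1% Malat1, which are 19 KO and 2 WT members. The fast troponin Tnnc2 had 706 CPM in KO and 383 CPM in WT members. In the low, middle and high marker ranges, 7 of 7, 8 of 8 and 5 of 9 developmental isoforms were higher in KO. Their medians were 1.04, 0.90 and 0.07. For adult isoforms 8 of 8, 8 of 9 and 5 of 10 were higher, with medians of 0.72, 1.04 and -0.07. Scaffold genes had medians of 0.50, 0.55 and 0.002. Over all genes tested, 3199 of 6967, 3620 of 6783 and 2917 of 5792 were higher, with medians of -0.04, 0.04 and 0.003. As given above, values by range are descriptions. Of 33 scaffold genes, 14 were higher and 19 lower, with a median of -0.07; Ttn, the giant spring titin, had 1238 and 1174 CPM, an order that turned without the cycling members (log2 -0.10).

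**Figure D5:**
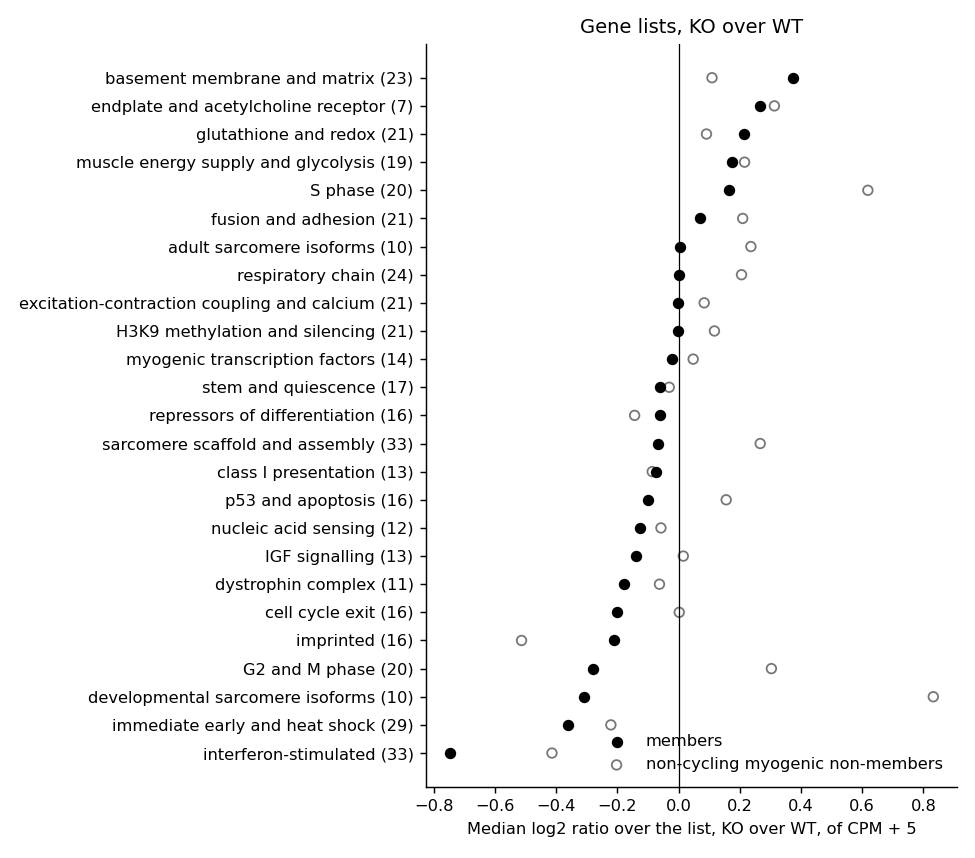
Median log2 ratio of CPM + 5, KO over WT, over the genes of each list (number tested in members in brackets), in members (filled) and in non-cycling other myogenic barcodes (open). Lists with fewer than 5 genes tested and those picked on these data are not drawn. Of the 25 lists drawn, interferon-stimulated genes have the lowest median in members, -0.75, and basement membrane and matrix genes the highest, 0.37; the medians of all genes tested were -0.02 in members and 0.08 in non-cycling barcodes.

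Interferon-stimulated genes were lower in KO members. Of the 33 tested, 32 were lower and 1 was higher, with a median log2 ratio of -0.75, and 8 were at least 2-fold lower. Over all genes tested, 53.2% were lower and 0.643% at least 2-fold lower. Isg15, a ubiquitin-like antiviral protein, had 103 CPM in KO and 201 CPM in WT members, Irf7, which drives type I interferon genes, 17.4 and 40.2 CPM, and Ifit3 4.87 and 25.4 CPM. Ly6e, the exception, had 272 and 218 CPM. The summed list was spread unevenly over the cells, with 21.97% of its UMIs in 5 KO members and 42.3% in 5 WT members, and its median per member was 642 CPM in KO and 667 CPM in WT. When every barcode was thinned to 5000 UMIs before the choice of members, the list median was -0.21 and the log2 ratio of Isg15 was 0.08, against -0.94 before; as a mean over cells the list median was -0.31. Outside the myogenic barcodes Isg15 had 330 CPM in KO and 752 CPM in WT, so the lower level was seen there too. Without the members of over 1% other-class markers the list median was -0.69, and without those of under 0.1% Malat1 it was -0.66.

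Immediate early and heat shock genes, which respond to tissue dissociation, were lower in 27 of 29, with a median of -0.36, where 53.2% of all genes tested were lower. The level of the whole list per member was similar, with medians of 10557 CPM in KO and 10575 CPM in WT. In the low, middle and high marker ranges, given as a description, the median log2 ratios were -0.07, -0.59 and -0.11. Jun had 554 CPM in KO and 837 CPM in WT members, and Dnajb1 169 and 273 CPM. Genes of G2 and M phase were lower in 18 of 20, with a median of -0.28, and S phase genes were higher in 15 of 20, with a median of 0.16. In KO 49.0% and in WT 60.6% of the G2 and M phase UMIs lay in 5 members, and the list median turned to 0.34 without the cycling members and to 0.04 as a mean over cells.

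Basement membrane and matrix genes were higher in 19 of 23, where 46.8% of all genes tested were higher, with a median of 0.37, or 0.32 without the members of over 1% other-class markers. Sparc, a matrix glycoprotein of muscle precursors, had 1338 CPM in KO and 1067 CPM in WT members, Igfbp7 123 and 49.8 CPM, and Tnc, the matrix protein tenascin C, 37.6 and 12.7 CPM. Fibro-adipogenic markers and free RNA of fibroblast genes were also higher in KO members, as given above for Col1a1, and their part in this list was not tested. Notch3, a receptor of the stem cell list, had 49.4 CPM in KO and 15.8 CPM in WT members. It is also on the marker list of mural cells (pericytes and smooth muscle). That list summed to 108 CPM in KO and 19.8 CPM in WT members, with 7686 CPM in the highest KO member. The part of mural RNA in the Notch3 difference was not tested. Of the 17 stem and quiescence genes tested, 10 were lower and 7 higher in KO members, with a median of -0.06.

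The lists of myogenic transcription factors and of fusion genes were near the median of all genes, and those of endplate and energy genes were above it. Myogenic transcription factors were higher in 7 of 14 and lower in 7, with a median of -0.02. Mef2c, a partner of Myog, had 127 CPM in KO and 90.02 CPM in WT members, and Myod1 had 292 and 375 CPM. Fusion and adhesion genes other than those of the rule were higher in 11 of 21 and lower in 10, with a median of 0.07; Cav3, the muscle caveolin, had 101 and 151 CPM. Endplate genes were higher in 6 of 7, with a median of 0.27, and their leading gene Chrna1, the acetylcholine receptor alpha subunit, had 1003 CPM in KO and 833 CPM in WT members. Energy and glycolysis genes were higher in 15 of 19, with a median of 0.18; Eno3, the muscle enolase, had 735 and 541 CPM. Of 21 listed germline genes, 1 had enough UMIs to be tested. That gene had 143 UMIs in KO and 5 in WT members, a log2 ratio of 2.86. Of its KO UMIs, 43.4% lay in 5 members. The lists of genes that an earlier comparison of these libraries found raised or lowered were higher in 13 of 13 (median 2.58) and lower in 12 of 14 (median -0.77); they were picked on these data and support nothing.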

How the data were processed

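The deposited files hold raw UMI counts per gene and barcode, with no normalization and no filter on barcodes, read as such from the values of the 55487 genes; no sample columns were left unused (0). The submitters' processing notes name Seurat 4.0.1, STAR 2.7.8a, STARsolo 2.7.9a and the build GRCm38, without their roles; settings and annotation release were not given in the sources used here. The libraries hold 138667420 KO and 121703522 WT UMIs.

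Barcodes with 5000 or more UMIs and at most 10% mitochondrial UMIs were kept, and counts of the members were summed per library and scaled to CPM. Log2 ratios are KO over WT of CPM + 5, over genes with at least 20 UMIs; ratios with intervals are of CPM without it. Thinning drew 5000 UMIs from each barcode. Free RNA was taken from barcodes of 20 to 100 UMIs. Doublets were not removed: Scrublet in scanpy 1.11.5 marked 0 barcodes by its own threshold, and removing the highest scores (0.8% per 1000 barcodes) was an alternative. Mitochondrial, ribosomal, haemoglobin, immunoglobulin, Y-linked and predicted genes, Xist and the genes of the rule were not named among the 12 highest and lowest. A gene that the naming rule picked is not reported here. The members and the gene lists were chosen with earlier results of these data known. The interval code was tested on simulated data. Analyses used python 3.11.15, numpy 2.4.6, pandas 2.3.3, scipy 1.17.1 and matplotlib 3.10.9; gene positions are from GENCODE on GRCm38.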

Additional observations from a re-analysis of the deposited data

Results flagged for a closer look

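Barcodes of lower depth than the members held the same marker genes. Of KO barcodes with 2000 to under 5000 UMIs and at most 10% mitochondrial UMIs, 68 of 4176 (1.63%) met the marker rule, and of WT barcodes 3 of 1298 (0.231%). The KO barcodes had a median of 3217.5 UMIs, with 2565 CPM of Myog, 2040 CPM of Actc1 and 1135 CPM of Cck, and 3103 CPM of the phagocyte gene Lyz2. They stand out because the report does not use data of this depth.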

How the results depend on the processing

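No paired analysis was possible because each genotype has 1 library. The log2 ratio of the member shares was 0.72 over quality barcodes and 1.64 over myogenic barcodes. Of the genes at least 2-fold higher in KO members (134), there were 226 after thinning before the choice, 223 as a mean of per-cell CPM, 293 with CPM + 1, 33 with CPM + 20 and 60 with at least 100 UMIs. Of those at least 2-fold lower (63), there were 103 with no UMI of Csf1r, Pdgfra and Cdh5 allowed, 226 with CPM + 1, 7 with CPM + 20, 126 with free RNA subtracted and 14 with at least 100 UMIs. In members against other myogenic barcodes, 326 higher genes became 154 with CPM + 20 and 174 with at least 100 UMIs, and 241 lower genes became 399 with CPM + 1 and 91 with CPM + 20. These counts follow the pseudocount and the filter by construction; the cause of the others was not tested. The sign turned under at least 1 alternative for 12 of 55 genes and 13 of 28 list medians. Those of 0.25 or more in size were G2 and M phase genes (-0.28; 0.34 without cycling members, 0.04 as a mean over cells), Isg15 (-0.94; 0.08 after thinning), Mki67 (-0.26; 0.41 without cycling members) and Top2a (0.34; -0.16 with no UMI of Csf1r, Pdgfra and Cdh5). Ckm (0.17) was -0.52 without low-Malat1 members. Of 990 log2 ratios of 55 genes, 113 moved past their counting interval, and 25 of 560 list medians moved by 0.25 or more. Leaving out members of over 1% other-class markers or under 0.1% Malat1 was chosen after seeing the data, as was leaving out the member with the most UMIs of a gene. The first of these left 119 higher and 77 lower genes, the second 134 and 74.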
